A study of Mus musculus with 9 samples.

Results

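Endothelial cells hold to their neighbours through junctional proteins, and 10 genes that encode such proteins were followed in meningeal lymphatic endothelial cells (MLECs) from mice with and without an intracranial tumor. The genes were Cdh5, Ctnnb1 and Pecam1 of adherens-type contacts, Cldn5, Ocln and Tjp1 of tight junctions, and the immunoglobulin-type adhesion molecules F11r, Jam2, Jam3 and Esam. They were taken by name, as core proteins of endothelial junctions, and the rule uses no measured value. These genes and the further gene lists used below were nevertheless chosen with earlier results of these data known. All 10 were among the 24321 genes listed, and all 10 passed the filter on low values described with the tests.

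Adherens junctions are built on VE-cadherin, which pairs between neighbouring endothelial cells and is anchored to actin through catenins. Tight junctions seal the cleft with claudins and occludin, which are held by ZO scaffold proteins, and junctional adhesion molecules (JAMs) and ESAM bind between cells beside them. In initial lymphatic vessels these proteins are arranged in discontinuous, button-like contacts that admit fluid and cells, whereas collecting lymphatic vessels and most blood vessels carry continuous, zipper-like contacts, and claudin-5 is the main claudin of endothelium.

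MLECs were compared in 3 groups of 3 RNA-seq libraries from male C57BL/6 mice, labelled as 10 weeks old, with no engineered allele named for these samples. Control mice had received PBS alone. GL261 mice carried a glioma line and B16 mice a melanoma line, and meninges were collected about 3 weeks after injection of GL261 and about 2 weeks after injection of B16, so that tumor type and time from injection cannot be told apart. The sample labels place the injection in the cisterna magna and the methods of the study place it under the dura. Each library is described as Smart-seq2, a full-length cDNA method, from 10 cells sorted with antibodies to CD31, CD45 and LYVE-1. The methods of the study do not name Smart-seq2 and describe a tail added to the first-strand cDNA before amplification. The cells came from the meninges of 6 pooled mice. Elsewhere the study names PDPN in place of LYVE-1 in the gate. The replicates are thus pools of different animals, each seen through very few cells.

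The values are FPKM, fragments scaled by transcript length and by the mapped fragments of the library, which allow genes to be compared in level. No read counts were given, so the depth behind a single FPKM is unknown and no counting error can be attached to it. Control libraries had 7303 to 8688 genes above 0 and tumor-associated libraries had 8736 to 10852, and the sample table of the study also gives the controls the lower numbers of aligned reads, without overlap. An FPKM of 0 is therefore given as listed at 0, and not as absence. The lymphatic markers Prox1, Flt4, Lyve1 and Pdpn were above 0 in all 9 libraries, but not at equal levels. Prox1 averaged 32.3 FPKM in control, 6.80 FPKM in GL261 and 3.07 FPKM in B16 MLECs, and Flt4 averaged 199, 44.8 and 74.0 FPKM. The leukocyte marker Ptprc was listed at 0 in all 9. The 10 leukocyte markers nevertheless summed to 39.7 to 258 FPKM per library, and Cd14 and Mrc1 among them were above 0 in all 9. Among other cell types, the melanoma and the epithelial and arachnoid markers summed to at most 4.07 and 15.0 FPKM per library. Glial markers summed to between 25.4 and 37.0 FPKM in B16 libraries and to at most 10.5 in the others. Mural cell markers summed to 1268 FPKM in control replicate 1 and to between 17.6 and 203 in the other libraries, and fibroblast markers summed to 152 FPKM in control replicate 2 and to between 1.86 and 32.6 elsewhere.

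Of the 10 junction genes, Esam and Jam2 rose in tumor-associated MLECs under both tumors, and Cldn5 fell in GL261 MLECs. All of these calls were lost when library depth entered the fit as a covariate. Those of Jam2 and Cldn5 in single tumors were also lost without some single libraries. Esam went from a mean of 13.2 ± 18.1 FPKM (SD, n = 3) in control MLECs to 522 ± 147 FPKM (SD, n = 6) in tumor-associated MLECs. Cldn5 went from 1576 ± 110 FPKM in control to 785 ± 97.3 FPKM in GL261 MLECs (SD, n = 3 each). The other 7 genes did not pass the test against control in any comparison, although Pecam1 was higher and Tjp1 lower in each of the 6 tumor-associated libraries than in each control library.

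**Figure D1:**
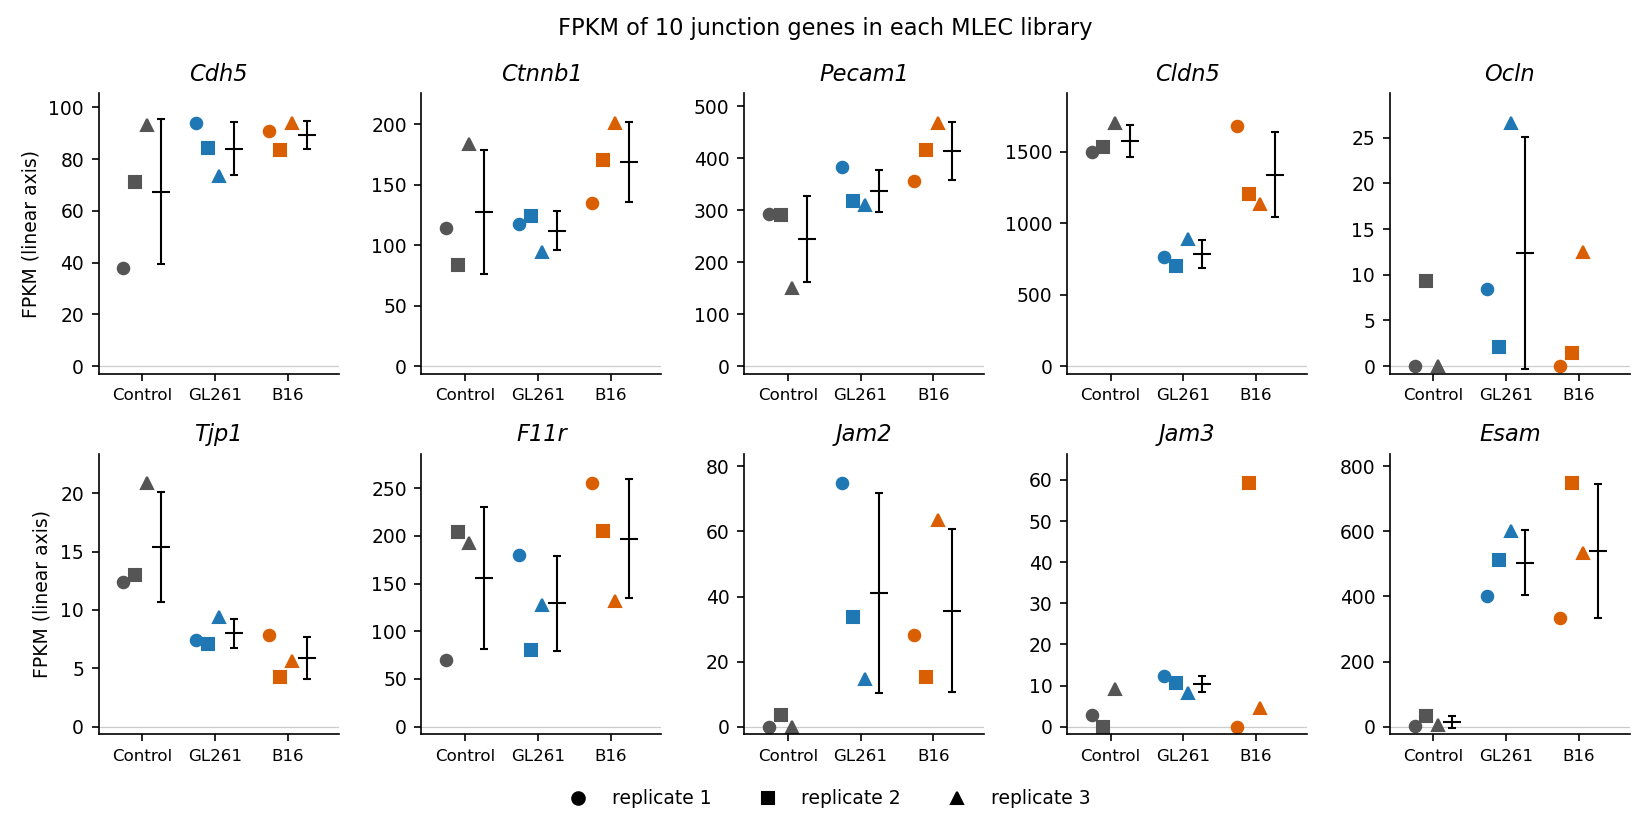
FPKM (linear vertical axis, its own scale in each panel) of the 10 junction genes in each MLEC library of the Control, GL261 and B16 groups; symbols give the replicate, and the black bars give mean ± SD (n = 3) for groups in which no library was listed at 0. Esam lay at 1.89 to 34.1 in control MLECs, against 335 to 748 with a tumor, whereas Cldn5 lay at 1497 to 1702 in control MLECs, against 698 to 890 with GL261.

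Differences between groups were taken on the scale log2(FPKM + 1), which understates changes of low genes, and were tested with limma over all 9955 genes that reached an FPKM of 1 in 3 or more libraries, and p-values were adjusted over all of them by the method of Benjamini and Hochberg. GL261 and B16 libraries were joined as tumor-associated MLECs, as in the study, and each tumor was also set against the control on its own. All of these comparisons use the same 3 control libraries, so they do not support each other independently. Between tumor-associated and control MLECs 391 genes passed an adjusted p of 0.05, which is 3.93% of the genes tested, with 2.9% higher and 1.02% lower. Of the 10 junction genes, 2 passed and both were higher. The median difference was 0.56 over the 10 genes and 0.20 over all genes tested, and 8 of the 10 genes and 57.2% of all genes had a higher mean in tumor-associated MLECs. Small differences are therefore also given relative to that median of all genes.

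The adherens-type genes came first. Cdh5 encodes VE-cadherin, the transmembrane cadherin of endothelial adherens junctions, and lies on chromosome 8 at 106625525 to 106668402 (mm9, plus strand). Cdh5 stood at 37.9, 71.1 and 93.3 FPKM in control replicates 1 to 3, at 93.9, 84.4 and 73.6 FPKM in GL261 and at 90.7, 83.5 and 94.0 FPKM in B16 replicates. Control replicate 1 was the low library, and the other 8 libraries lay in a narrow range within which the groups overlapped. The log2 difference between tumor-associated and control MLECs was 0.45 (SE 0.36, limma adjusted p = 0.524), or 0.24 above the median of all genes, and it was 0.08 without control replicate 1. The 95% interval ran from -0.33 to 1.22, so a modest change of Cdh5 in either direction was not excluded by the spread.

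Ctnnb1, on chromosome 9 at 120838334 to 120869625, encodes beta-catenin, which links cadherins to alpha-catenin and also acts in Wnt signalling. Its values were 114, 83.6 and 184 FPKM in control, 118, 124 and 94.0 FPKM in GL261 and 135, 171 and 201 FPKM in B16 replicates. The control libraries spanned most of the range of both tumor groups, and the log2 difference of tumor-associated MLECs was 0.17 (SE 0.35, limma adjusted p = 0.841), a sign that turned to -0.05 under another scaling of the FPKM. The gene overlaps Ulk4 and a processed transcript on the opposite strand, and whether counting used strand is not given in the sources used here.

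Pecam1, on chromosome 11 at 106515531 to 106611942 on the minus strand, encodes CD31, an adhesion molecule of endothelial contacts and one of the antigens by which the cells were sorted. Pecam1 measured 293, 291 and 150 FPKM in control replicates, 384, 318 and 309 FPKM in GL261 and 356, 416 and 468 FPKM in B16 replicates. Every tumor-associated library was above every control library, and control replicate 3 was the lowest. The log2 difference was 0.67 (SE 0.28, 95% interval 0.06 to 1.27), or 0.46 above the median of all genes. It did not pass in limma (adjusted p = 0.222), and the two-sided exact permutation test gave p = 0.0119 before any adjustment, the smallest value that the 84 divisions of 9 libraries into 3 and 6 allow.

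Among the tight junction genes, Cldn5 was the most abundant of the 10 genes in every library. It encodes claudin-5 and lies on chromosome 16 at 18776940 to 18778353 (mm9, plus strand). Cldn5 stood at 1497, 1529 and 1702 FPKM in control replicates, at 765, 698 and 890 FPKM in GL261 replicates, and at 1679, 1203 and 1136 FPKM in B16 replicates. The 3 GL261 libraries lay below all control and all B16 libraries, and B16 replicate 1 lay among the controls. In GL261 against control the log2 difference was -1.01 (SE 0.21, 95% interval -1.46 to -0.56, limma adjusted p = 0.0215), or -1.24 relative to the median of all genes. In B16 against control it was -0.25 (SE 0.21, 95% interval -0.70 to 0.20, adjusted p = 0.616), and for both tumors together it was -0.63 (SE 0.26, adjusted p = 0.211).

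The Cldn5 difference in GL261 MLECs no longer passed without control replicate 3 (-0.95, adjusted p = 0.0644), GL261 replicate 1 (-0.996, adjusted p = 0.0891) or GL261 replicate 2 (-0.93, adjusted p = 0.105), or with a spread not tied to the mean level (-1.01, adjusted p = 0.319), while its size hardly moved. With the number of aligned reads as a covariate the difference was -0.15 (adjusted p = 0.950), and with the number of genes above 0 it was -0.61 (adjusted p = 0.631).

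The promoter sequences that follow are those of Cldn5, the member with the highest level, and of Tjp1, the member that was lower in all 6 tumor-associated libraries, and are shown because these genes had lower means in tumor-associated MLECs, whereas the other 8 had higher means. Each is the stretch of 250 bases before a RefSeq start site, placed on mm9 by exact match, written 5′ to 3′ on the strand of the gene, with the core letters of ETS factor sites (GGAA on either strand, so also TTCC) in capitals. The Cldn5 stretch is chr16:18776690-18776939 on the plus strand and the Tjp1 stretch is chr7:72516131-72516380 on the minus strand.
Cldn5: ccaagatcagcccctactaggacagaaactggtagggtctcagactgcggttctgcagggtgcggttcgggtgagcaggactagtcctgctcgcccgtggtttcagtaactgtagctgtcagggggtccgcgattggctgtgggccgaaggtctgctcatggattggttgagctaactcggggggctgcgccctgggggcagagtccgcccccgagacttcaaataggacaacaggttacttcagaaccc
Tjp1: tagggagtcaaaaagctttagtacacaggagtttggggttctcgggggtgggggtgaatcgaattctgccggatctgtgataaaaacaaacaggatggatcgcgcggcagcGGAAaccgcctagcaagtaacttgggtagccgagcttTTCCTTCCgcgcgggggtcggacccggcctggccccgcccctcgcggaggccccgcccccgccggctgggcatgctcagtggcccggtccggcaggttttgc
The Cldn5 window held no GGAA in either orientation, with a GC content of 59.6%, and the Tjp1 window held 3, with a GC content of 63.2%. RefSeq promoters were given for 5 of the 10 genes (Cldn5, Ctnnb1, F11r, Ocln and Tjp1), and 4 of these 5 held GGAA, against 93.4% of 32851 mouse promoter windows of the same length. The letters CACCC, the core of KLF factor sites, were in 4 of the 5 and in 52.0% of all windows, and TGTTTAC, a forkhead sequence, was in 0 of the 5 and in 3.17% of all. A gene was counted if any of its windows held the letters, whereas the shares of all promoters count single windows. The counts of genes and these shares are thus unlike measures. Ctnnb1 (2 and 0 matches of CACCC) and Ocln (0 and 4) each had a window with and a window without it. These are matches of letters only.

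Tjp1 encodes ZO-1, the scaffold that ties claudins, occludin and JAMs to actin, and lies on chromosome 7 at 72441051 to 72516125 on the minus strand. Its FPKM was low throughout, with 12.4, 13.0 and 20.9 in control, 7.46, 7.06 and 9.41 in GL261 and 7.85, 4.28 and 5.60 in B16 replicates. All 6 tumor-associated libraries were below all 3 controls. The log2 difference was -1.04 (SE 0.58, 95% interval -2.30 to 0.21), which did not pass in limma (adjusted p = 0.356), and the exact permutation test gave its smallest value, p = 0.0119, unadjusted. The interval of Tjp1 thus included no change.

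Ocln, on chromosome 13 at 101266462 to 101322673, encodes occludin, a transmembrane protein of tight junctions. It was listed at 0 in control replicates 1 and 3 and stood at 9.33 FPKM in replicate 2, with 8.39, 2.12 and 26.6 FPKM in GL261 and 0, 1.43 and 12.5 FPKM in B16 replicates. Libraries at or near 0 occurred in both control and B16 MLECs. Its log2 difference of 1.33 had an SE of 1.13 (limma adjusted p = 0.556), so no change of Ocln could be detected.

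In the JAM family, F11r was the member with the most transcript in control MLECs. It encodes JAM-A and lies on chromosome 1 at 173367666 to 173394734. F11r stood at 70.1, 205 and 193 FPKM in control, at 180, 80.5 and 127 FPKM in GL261 and at 255, 205 and 131 FPKM in B16 replicates. The groups overlapped, with a log2 difference of 0.12 (SE 0.44, 95% interval -0.82 to 1.06, limma adjusted p = 0.916) that became -0.11 under another scaling and -0.38 without control replicate 1.

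Jam2, which encodes JAM-B, an adhesion molecule that pairs with JAM-C, lies on chromosome 16 at 84774368 to 84826173. It was listed at 0 in control replicates 1 and 3 and stood at 3.62 FPKM in replicate 2. GL261 replicates had 74.9, 33.7 and 14.7 FPKM and B16 replicates had 28.1, 15.4 and 63.6 FPKM, so that every tumor-associated library exceeded every control library, with about the same spread under both tumors. The log2 difference was 4.30 (SE 0.75, 95% interval 2.67 to 5.94, limma adjusted p = 0.00654) for both tumors together, 4.38 for GL261 (adjusted p = 0.0236) and 4.23 for B16 (adjusted p = 0.0367). As 2 of 3 control libraries were listed at 0, the size of this difference depends on the constant added before the log, and no fold is given.

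A profile like that of Jam2, listed at 0 in at least 2 control libraries and in no tumor-associated library, was shared by 625 of the 9955 genes tested (6.28%). The study itself listed Jam2 among genes that it picked from these libraries, so its direction here is not independent evidence. The call for single tumors was narrow. It was lost in GL261 without control replicate 1 (adjusted p = 0.0566), control replicate 3 (0.0603), GL261 replicate 1 (0.132) or GL261 replicate 2 (0.102), and in B16 without any library other than GL261 replicate 3 and control replicate 2 (adjusted p from 0.0590 to 0.167). With both tumors together Jam2 passed whichever library was left out, with an adjusted p of at most 0.0268.

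Jam3, on chromosome 9 at 26904969 to 26963003 on the minus strand, encodes JAM-C, a partner of JAM-B. It was at 2.82, 0 and 9.04 FPKM in control, at 12.2, 10.7 and 8.24 FPKM in GL261 and at 0, 59.2 and 4.54 FPKM in B16 replicates. B16 replicate 2 alone was far above the rest, and B16 replicate 1 was listed at 0 as control replicate 2 was. The log2 difference of 1.39 (SE 1.14, limma adjusted p = 0.534) was within the spread.

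Esam, on chromosome 9 at 37335663 to 37345904 (mm9, plus strand), encodes an adhesion molecule of the same immunoglobulin family that is found at endothelial tight junctions and on platelets. Esam stood at 1.89, 34.1 and 3.57 FPKM in control replicates 1 to 3, at 400, 511 and 601 FPKM in GL261 and at 335, 748 and 535 FPKM in B16 replicates. The lowest tumor-associated library was far above the highest control library, and the ratio of the mean FPKM was 39.6. Esam also had the largest difference of the 10 genes, with 6.03 on the log2 scale (SE 0.62, 95% interval 4.68 to 7.38, limma adjusted p = 1.70e-04), and it ranked 15th by p among the 9955 genes. The difference was 6.01 for GL261 (adjusted p = 0.00184) and 6.05 for B16 (adjusted p = 0.00206). Within a library, Esam moved from rank 2198 to 6374 by FPKM in control MLECs to rank 172 to 338 in tumor-associated MLECs. In bulk samples such as these, more cells of a type and more RNA per cell cannot be told apart.

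The depth of the libraries moved with these results. When aligned reads entered the fit as a covariate (on the log2 scale), the tumor-associated difference of Esam was 5.43 (limma adjusted p = 0.0891) and that of Jam2 was 3.17 (adjusted p = 0.388). When the number of genes above 0 entered instead, they were 4.92 (adjusted p = 0.0767) and 2.68 (adjusted p = 0.422). None of the 10 genes then passed, and 9 and 11 of all genes did. Depth and tumor status cannot be told apart in this design. At nearly the same number of genes above 0, 8688 in control replicate 2 and 8736 in B16 replicate 1, Esam was at 34.1 and 335 FPKM and Jam2 at 3.62 and 28.1 FPKM. That pair is 1 library on each side and is not matched for aligned reads, which were lower in the controls without overlap. The part of depth in these values was not tested. Without control replicate 2, the highest control library for both genes, the differences were 7.12 for Esam and 5.04 for Jam2.

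**Figure D2:**
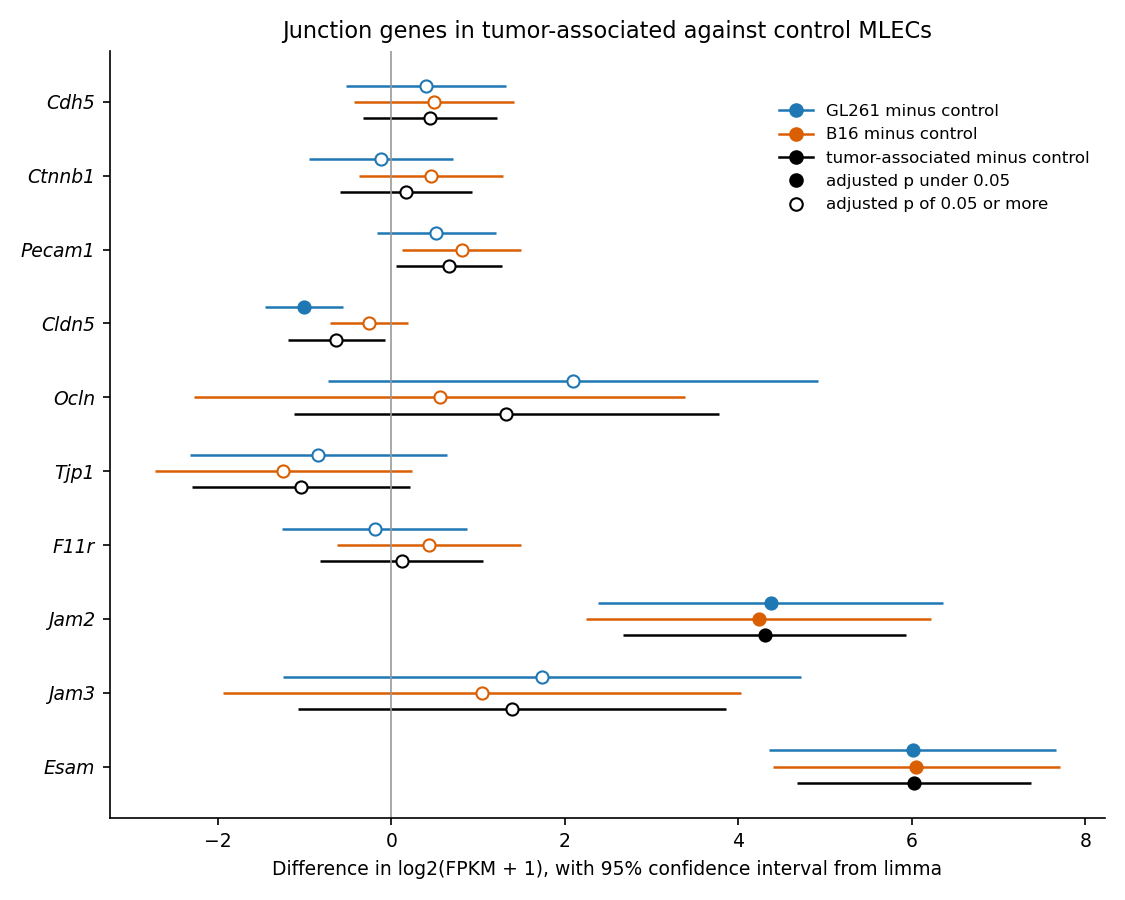
Difference in log2(FPKM + 1) between MLEC groups (horizontal axis) for the 10 junction genes, with points for the difference and lines for the 95% confidence interval from limma; filled points have an adjusted p under 0.05. Esam (6.03 for both tumors) and Jam2 (4.30) lay far to the right for each tumor, and Cldn5 was the only gene with a filled point to the left, in GL261 alone (-1.01).

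Set side by side without overlap, 3 of the 10 genes were higher (Esam, Jam2 and Pecam1) and 1 was lower (Tjp1) in all tumor-associated than in all control libraries, where 6.08% of all genes tested were higher and 4.44% lower in that way. For GL261 the same 3 were higher and both Tjp1 and Cldn5 were lower, against 13.7% and 8.84% of all genes. For B16 these 3 were higher and Tjp1 was lower, against 10.2% and 7% of all genes. With 3 libraries against 3, an exact permutation test cannot go below p = 0.1, and these genes reached that value. In limma, 3 of the 10 genes passed in GL261 against control, 2 higher and 1 lower, where 3.49% of all genes passed, 2.58% higher and 0.904% lower. In B16, 2 passed, both higher, where 2.11% of all genes passed, 1.61% higher and 0.502% lower. The median difference of the 10 genes was 0.46 in GL261 and 0.52 in B16, beside 0.23 and 0.20 over all genes.

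The tumors were also set against each other, a comparison in which the kind of tumor and the time from injection change together. In limma, 0 of the 10 genes and 1 of the 9955 genes (0.01%) passed between GL261 and B16. Cldn5 came closest, with a GL261 minus B16 difference of -0.76 (SE 0.21, 95% interval -1.21 to -0.31, adjusted p = 0.381), and was the only one of the 10 with an unadjusted p under 0.05, which 5.5% of all genes had. Its 3 GL261 libraries were below all 3 B16 libraries, as were those of Ctnnb1 (-0.58, SE 0.38, adjusted p = 1), while 0 of the 10 were higher without overlap, in a comparison where 6.66% of all genes were lower and 7.13% higher in that way. Esam differed by -0.04 between the tumors (95% interval -1.69 to 1.61) and Jam2 by 0.14 (95% interval -1.85 to 2.13), intervals that leave room for sizeable differences either way. That Cldn5 passed against control in GL261 and not in B16 is thus not shown to be a difference between the tumors.

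The make-up of the junction transcripts was described by the share of each gene in the summed FPKM of the 10 genes of a library. That sum was 2208 ± 165 FPKM in control, 2023 ± 143 FPKM in GL261 and 2815 ± 142 FPKM in B16 MLECs (SD, n = 3 each). Cldn5 supplied 71.4% ± 2.85 of it in control, 38.7% ± 2.26 in GL261 and 47.5% ± 9.31 in B16 MLECs. Esam supplied 0.589% ± 0.808 in control, 24.9% ± 4.65 in GL261 and 19.2% ± 7.12 in B16 MLECs, and Pecam1 supplied 11.3% ± 4.31, 16.7% ± 2.23 and 14.8% ± 2.69. Each tumor-associated library thus drew a smaller share from Cldn5 and a larger one from Esam than any control library. Shares within a library are parts of a fixed whole, so a rise of one gene lowers the others, and these shares carry no test.

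Within the JAM family, the leading member was F11r in control and Esam in tumor-associated libraries. F11r made up 84.4% to 93.9% of the FPKM of F11r, Jam2, Jam3 and Esam per control library, against 12.7% to 27.0% with GL261 and 17.9% to 41.3% with B16. Esam made up 1.74% to 14.1% in control and 54.2% to 80.3% in tumor-associated libraries. The family as a whole made up 3.69% to 10.8% of the FPKM of the 10 genes per control library, against 32.6% to 34.9% with GL261 and 21.4% to 35.4% with B16, while the FPKM of F11r itself overlapped between the groups.

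**Figure D3:**
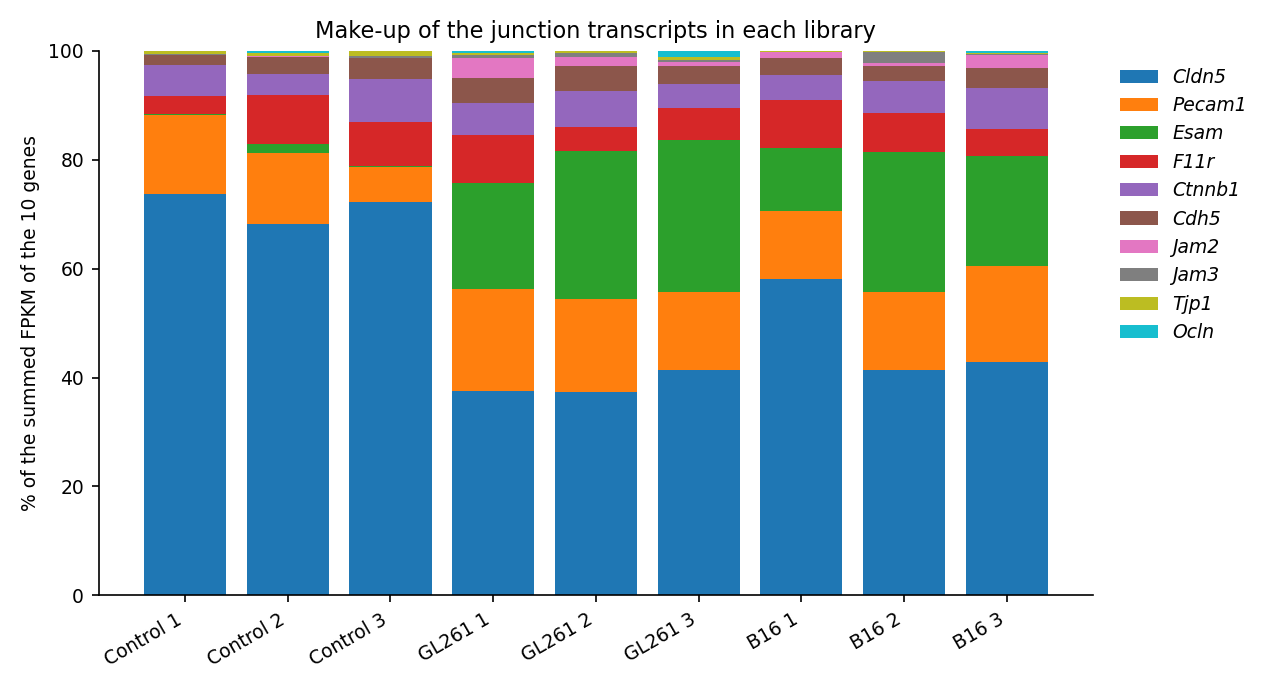
Share of each junction gene in the summed FPKM of the 10 genes (vertical axis, percent), as 1 stacked bar per MLEC library. Cldn5 took 68.3% to 73.8% of each control bar, against 37.4% to 58.2% of each tumor-associated bar, and the Esam segment, at most 1.52% in control, took 11.6% to 27.9% in tumor-associated libraries.

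Relative to single endothelial genes, Esam was at 0.00645 to 0.117 of the FPKM of Pecam1 in control libraries and at 0.942 to 1.95 in tumor-associated libraries. The ratio of Esam to Cdh5 was 0.0383 to 0.479 in control and 3.69 to 8.97 in tumor-associated libraries, and in neither ratio did the groups overlap. The ratio of Cldn5 to Cdh5 was 39.5, 21.5 and 18.2 in control, 8.15, 8.27 and 12.1 in GL261 and 18.5, 14.4 and 12.1 in B16 libraries, where B16 replicate 1 lay within the control range.

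By mean FPKM, the order in control MLECs was Cldn5, Pecam1, F11r, Ctnnb1, Cdh5, Tjp1, Esam, Jam3, Ocln and Jam2. Only Cldn5 over Pecam1 and Cdh5 over Tjp1 were neighbours without overlap of their libraries. In both tumor groups the order began with Cldn5, Esam, Pecam1, F11r, Ctnnb1, Cdh5 and Jam2. In GL261 MLECs each of the steps from Cldn5 to F11r was without overlap, whereas in B16 MLECs the libraries of Esam and Pecam1 overlapped, and the genes below Jam2 were not separated from each other in either group.

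Other genes of the junctions were read from fixed lists. Of 9 further adherens junction genes, 8 were tested, 0 passed in limma between tumor-associated and control MLECs, 3 had a higher mean, and the median difference was -0.26. None of the 8 had an unadjusted p under 0.05, which 19% of all genes tested had. The 2 with the lowest unadjusted p were Vcl, which encodes the actin-binding protein vinculin (1.41, adjusted p = 0.366), and Jup, which encodes plakoglobin, the close relative of beta-catenin (-0.77, adjusted p = 0.404). Of 16 further tight junction genes, 12 were tested, 0 passed, 7 had a higher mean, and the median difference was 0.44. The unadjusted p was under 0.05 for 3 of the 12, and Tjp3, Cgn, Cldn1 and Cldn3 of this list were listed at 0 in all 9 libraries. The 2 with the lowest unadjusted p were the scaffold genes Magi3 (-1.80, adjusted p = 0.181) and Magi1 (-1.64, adjusted p = 0.227). The farthest from 0 was Lsr, which encodes a protein of tricellular tight junctions and is named after its values were seen (2.70, adjusted p = 0.246), with 4 of 9 libraries listed at 0.

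Of 14 genes that regulate endothelial junctions, 13 were listed and tested and 0 passed in tumor-associated against control MLECs, 7 with a higher mean, the median difference was 0.11, and 3 of the 13 had an unadjusted p under 0.05. Ptprb encodes VE-PTP, a phosphatase that binds VE-cadherin, and was at 5.92 to 13.7 FPKM in control libraries, below the 29.0 to 43.2 FPKM of tumor-associated libraries (log2 difference 1.73, limma adjusted p = 0.0550). Icam2, an adhesion molecule of endothelial contacts, was at 54.8 to 198 FPKM in control libraries, below the 244 to 746 FPKM of tumor-associated libraries (1.63, adjusted p = 0.0672). Neither passed with both tumors together, while Icam2 passed in B16 against control (2.08, adjusted p = 0.0473) and not in GL261 (1.18, adjusted p = 0.226). It was the only gene of these 3 lists that passed in a single tumor.

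**Figure D4:**
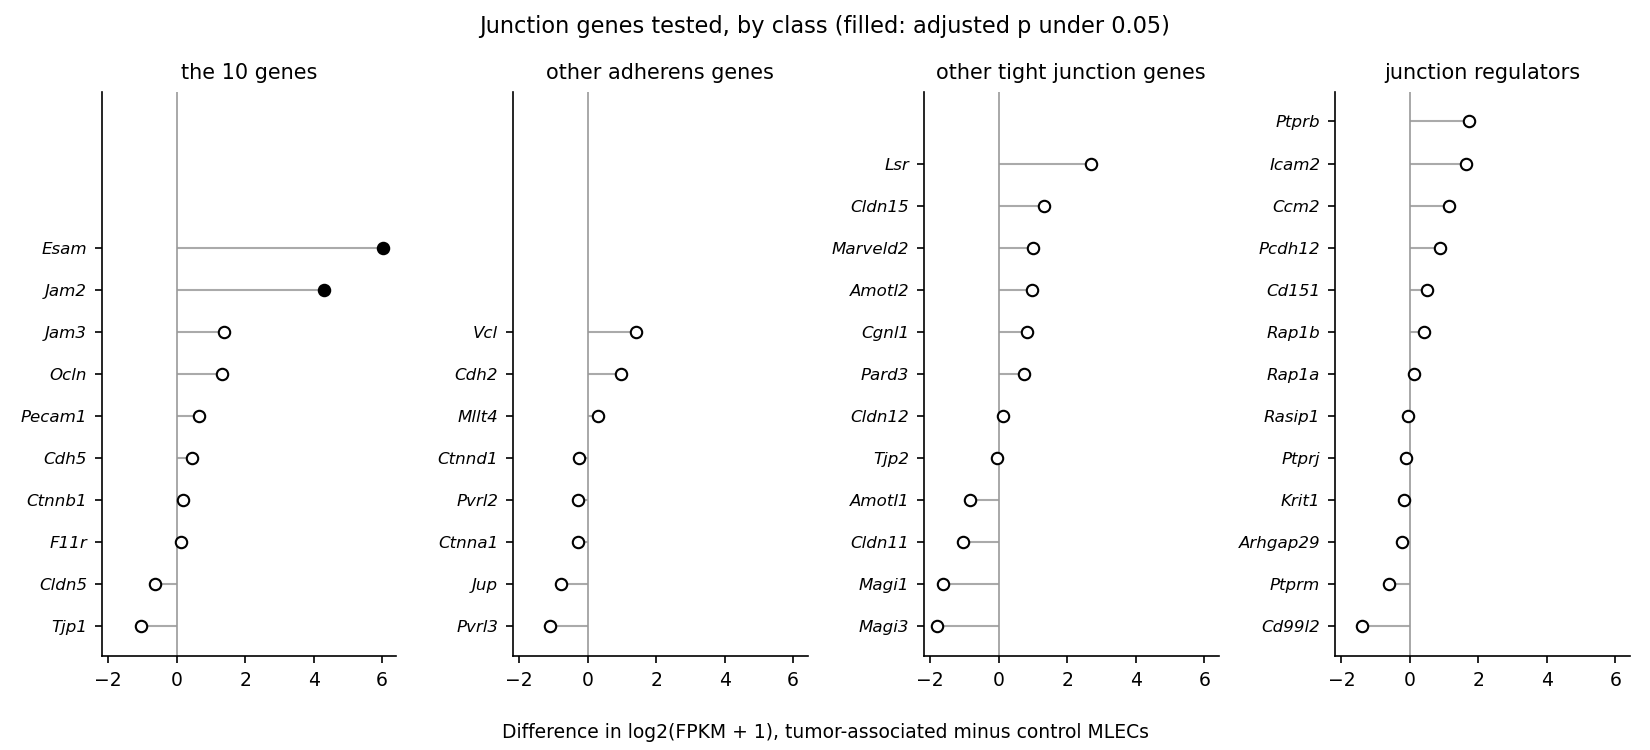
Difference in log2(FPKM + 1), tumor-associated minus control MLECs (horizontal axis), for the 10 junction genes and for the tested genes of 3 further lists; filled points have a limma adjusted p under 0.05. Esam (6.03) and Jam2 (4.30) are the only filled points, and among the further genes Lsr (2.70), Magi3 (-1.80) and Ptprb (1.73) lay far from 0.

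Genes of blood endothelium moved with Esam and Jam2. Of 12 such markers, all tested, 8 passed as higher in tumor-associated MLECs and 0 as lower, with a median difference of 3.51 and none of them at 0 in all libraries. Their summed FPKM was 951 to 1659 per control library, beside 3611 to 4959 with GL261 and 3569 to 6576 with B16. Plvap and Emcn had the highest means in that sum, with 1760 and 1619 FPKM in GL261 and 3174 and 881 FPKM in B16 MLECs. Flt1, a VEGF receptor, went from 0.0997 to 0.856 FPKM to 49.0 to 156 FPKM and Cd34 from 0.370 to 14.3 FPKM to 153 to 592 FPKM, whereas Plvap was already at 686 to 1390 FPKM in control libraries. Of 9 lymphatic markers, 8 were tested and 4 passed as lower (Ccl21c, Flt4, Mmrn1 and Reln), 0 as higher, and the summed FPKM was 10374 to 16693 per control library, beside 954 to 2954 with GL261 and 2123 to 6708 with B16. Ccl21c alone averaged 10312 FPKM in control, 533 FPKM in GL261 and 2681 FPKM in B16 MLECs. It made up most of the control sum, so the fall of the sum largely follows this gene. The lower levels were not limited to Ccl21c. Of the 8 tested markers 0 had a higher mean, and the median difference was -2.07. An unadjusted limma p under 0.05 was found for 7 of the 8, and for 19% of all genes. Prox1 was at 20.9 to 42.2 FPKM in controls and at 1.87 to 16.5 FPKM with a tumor (-2.79, limma adjusted p = 0.0509). Lyve1, a sorted antigen per the labels, overlapped between control (974 to 1705 FPKM) and tumor-associated libraries (628 to 1895 FPKM). Pdpn, the other antigen named for the gate, was at 147 to 372 FPKM in controls and at 32.0 to 247 FPKM with a tumor (-1.48, limma adjusted p = 0.235). Esam is also expressed by platelets, whose 7 markers summed to at most 4.10 FPKM per control library, beside 4.35 to 188 FPKM with GL261 and 17.0 to 55.8 FPKM with B16, with Gp6, Gp9 and Ppbp listed at 0 in all 9. Of the 7 markers 2 were tested, 0 passed and 1 had an unadjusted p under 0.05. Pf4 was listed at 0 in each control library and reached 187 FPKM with a tumor (4.42, limma adjusted p = 0.0739), and Itga2b was likewise at 0 in the controls and reached 4.11 FPKM. Of 10 leukocyte markers 5 were tested, of 8 mural markers 3 and of 8 glial markers 1, and 0 passed in limma with both tumors together, with an unadjusted p under 0.05 for 1, 1 and 0 of them. In single tumors, Mrc1 of the leukocyte list was lower in GL261 (-4.27, adjusted p = 0.0216) and S100b of the glial list higher in B16 (4.80, adjusted p = 0.0135). Of the fibroblast markers, Dcn, 1 of 2 tested, was lower with both tumors together (-4.60, adjusted p = 0.00110). No melanoma or epithelial marker reached the filter on low values. Cdh5 and Pecam1, which blood and lymphatic endothelium both express, did not pass in limma. Pecam1 was still higher in each tumor-associated than in each control library (0.67, 95% interval 0.06 to 1.27), so not passing does not show that it was unchanged. The part of the cell types named above in the levels of Esam, Jam2 and Cldn5 was not tested.

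**Figure D5:**
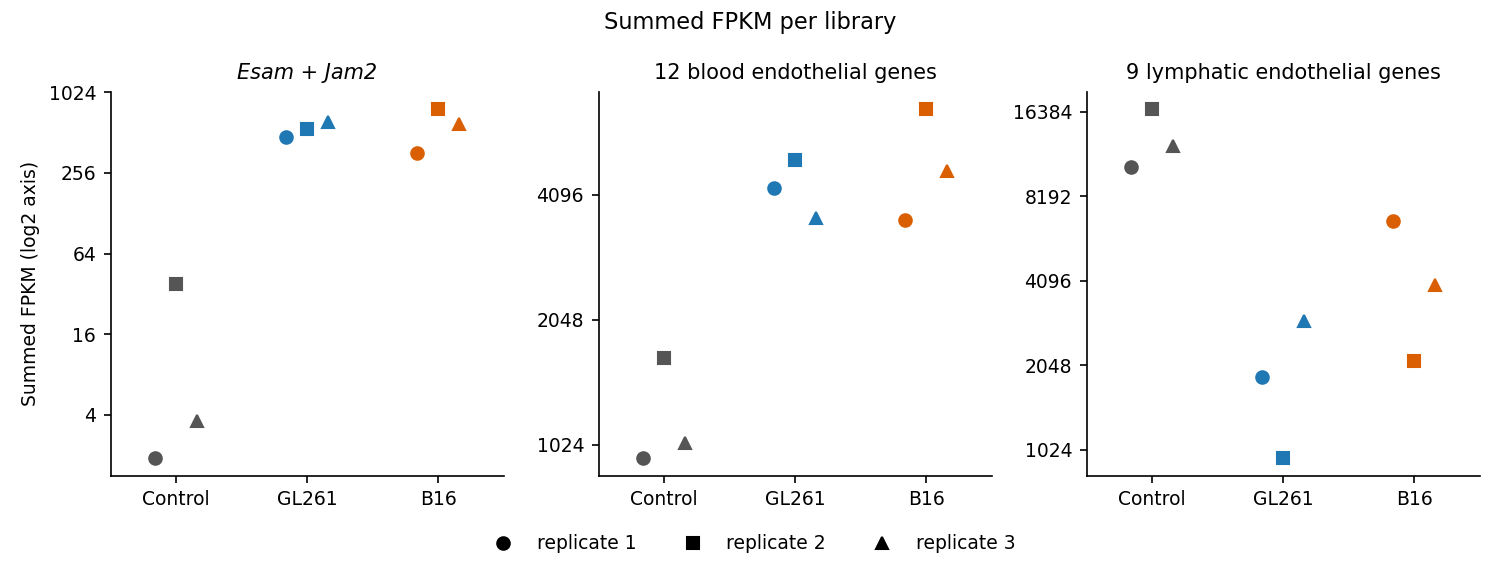
Summed FPKM per library (log2 vertical axis, its own scale in each panel) of Esam and Jam2, of 12 blood endothelial genes and of 9 lymphatic endothelial genes in Control, GL261 and B16 MLECs; symbols give the replicate. The blood endothelial sum was at most 1659 in control and at least 3569 in tumor-associated libraries, the lymphatic sum was at least 10374 in control and at most 6708 in tumor-associated libraries, and control replicate 2 was the highest of the controls in all 3 panels. Ccl21c made up most of the lymphatic sum in control libraries.

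To describe which genes ran most like a junction gene, each of the 9954 other tested genes was centred on its own mean over the 9 libraries and compared by the root mean square difference on the log2 scale, without a test. Closest to Esam were Entpd1, which encodes the ectonucleotidase CD39 (0.53), Capg (0.57) and Cd34 (0.60), where Esam itself varied around its mean by 3.00. Entpd1 reached at most 11.7 FPKM in control libraries and at least 201 FPKM in tumor-associated libraries. Closest to Cldn5 were Notch1 (0.23), Ubb (0.25) and Mxra8 (0.25), beside a variation of Cldn5 of 0.46, and Notch1, a receptor of arterial and lymphatic endothelium, was at means of 26.8, 12.7 and 25.6 FPKM in control, GL261 and B16 MLECs. Closest to Cdh5 were E030024N20Rik (0.13), Rnasek (0.17) and Eef1g (0.18), beside a variation of Cdh5 of 0.39. Cdh5 was at 37.9 FPKM in control replicate 1 and at 71.1 to 94.0 FPKM in the other libraries. Its likeness to these genes thus rests largely on 1 library. All points share the same 9 libraries and their depths.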

How the data were processed

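The 9 MLEC libraries were grouped by their labels as Control, GL261 or B16, with 3 libraries each. The authors aligned reads to mm9 and deposited FPKM per gene symbol and library, and the submitters' processing notes name TopHat 2.0.12 and Cufflinks 2.2.1. The gene annotation given to Cufflinks is not given in the sources used here. No scaling between libraries was added in the main fits, although the deposited FPKM sums differ between the groups. They were 652636 to 693117 in control and 701951 to 888312 in tumor-associated libraries, without overlap. Depth per value is unknown, and FPKM are not counts, so no count model was fitted. The ROC power of the study has no error model and was not used.

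From log2(FPKM + 1), limma 3.58.1 in R 4.3.3 (lmFit, eBayes with a trend) was fitted to all 9955 genes that reached an FPKM of 1 in 3 or more libraries. Adjustment was by Benjamini-Hochberg, with 0.05 as the threshold. Tumor-associated against control MLECs were fitted as 2 groups, single tumors as contrasts of 3 groups over all 9 libraries. Single genes were also compared by two-sided exact permutation tests. The fits were tested on simulated data with known changes. Positions are from GENCODE M1 on mm9. Promoter sequences are from a RefSeq table on GRCm38.p6 and were placed on mm9 by exact match. Python 3.11.15 was used for values and plots, with matplotlib 3.10.9, scipy 1.17.1, pandas 2.3.3 and numpy 2.4.6.

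The members and the lists of further junction genes and cell type markers were chosen with earlier results of these data known. Named were the 10 members, from each junction list the genes past the threshold or else the 2 with the lowest unadjusted p, from each marker list genes by level and threshold (the text gives those that touch a member), and for Cdh5, Cldn5 and Esam the 3 genes most like each. Ptprc, Prox1, Pdpn and the markers listed at 0 are named beside the rule, as checks of cell type. Alternatives were another pseudocount (0.1), FPKM rescaled to an equal sum, median ratio scaling, quantile normalization, 2 other filters, a block for the replicate number, eBayes without a trend, depth covariates, and leaving out each library.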

Additional observations from a re-analysis of the deposited data

How the results depend on the processing

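Of the 10 genes, those past the threshold numbered 2 in tumor-associated against control MLECs, 3 in GL261 and 2 in B16 against control. With either depth covariate they were 0, 0 and 0. With genes above 0 in all 9 libraries, which leaves out Jam2, Jam3 and Ocln, they were 1, 2 and 1. In B16 the count was also 1 with a pseudocount of 0.1 and with all genes above 0 in at least 1 library, where Jam2 was lost. In GL261 it was 2 with that last filter (Jam2, adjusted p = 0.0547) and 2 without a trend. With the replicate block they were 2, 2 and 1, Jam2 being lost in GL261 (adjusted p = 0.0545) and in B16 (0.0776). Same-numbered libraries did not deviate together (correlations -0.033 to 0.044), so the numbers do not pair them. Leaving out 1 library gave 2 in each case for both tumors, 1 to 3 for GL261 and 1 to 2 for B16. Between GL261 and B16 the count was 0 under each alternative.

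Over all genes, the counts past the threshold in tumor-associated, GL261 and B16 against control MLECs (391, 347 and 210) were 254, 218 and 135 with all genes above 0 in at least 1 library, 212, 225 and 96 with genes above 0 in all 9, 9, 2 and 5 with aligned reads and 11, 6 and 16 with genes above 0 as a covariate, and 303, 230 and 146 with the replicate block. Leaving out 1 library gave 245 to 444, 105 to 363 and 69 to 274. Between GL261 and B16 the count of 1 became 2 with quantile normalization, 6 without a trend and 1 to 4 without 1 library. Higher calls were 73.9% of those in tumor-associated MLECs, 63.5% with FPKM rescaled to an equal sum and 62.1% with quantile normalization, and the median difference of all genes, 0.20, became 0.05 and 0.03, against 0.40 with a pseudocount of 0.1. With genes above 0 in all 9 libraries, the higher calls were 58% and the median difference was -0.03. Under the scalings the differences of Esam ran from 5.60 to 6.04, of Jam2 from 4.24 to 4.50 and of Cldn5 in GL261 from -1.48 to -0.96. The difference of Cldn5 over both tumors turned to 0.30 and 0.04 with the depth covariates. With Cldn5 left out of the sum, the Esam share was 1.90% in control, 40.8% in GL261 and 35.6% in B16 MLECs. The cause was not tested. Library depth, which has no value per gene here, limits what can be said of Ocln, Jam2 and Jam3 at 0.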
